A study of Arabidopsis thaliana with 18 samples.

Results

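The genes described here are 38 Arabidopsis thaliana loci of the phosphate starvation response, out of 32833 loci listed in every library. They were picked by locus identifier: the regulator PHR1 and the SPX proteins, the noncoding RNAs MIR827, AT4 and IPS1, phosphate transporters, phosphatases, a ribonuclease and enzymes of membrane lipid exchange. The list was drawn up with earlier results of these data known, because several of its genes differed between the mutants and wild type. Differences between mutant and wild type are therefore given as a description; calls at an adjusted p under 0.05 are counted there beside the share of all genes called, and support nothing about the list. By contrast, responses to light and the difference between wild-type sets were tested.

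Messenger RNA was sequenced from whole 4-day-old seedlings grown on 1/2 MS medium. Seedlings kept in continuous darkness were cry2-1 (cry2_dark, 3 libraries), the quadruple mutant fkd1 fl1-2 fl2 fl3, named flΔ4 (fl4_dark, 3 libraries), and Col-0 wild type (WT_dark, 6 libraries). Seedlings given 30 min of blue light after darkness, at 30 μmol per square metre and second, were cry2-1 (cry2_blue, 3 libraries) and Col-0 (WT_blue, 3 libraries). CRY2 encodes the blue light receptor cryptochrome 2, and FKD1 and the FORKED-LIKE genes are known for their part in leaf vein patterning. By title numbering, cry2_dark was set against WT_dark 1-3 and fl4_dark against WT_dark 4-6. No label says that the libraries of a group came from separate cultures, so p-values measure the spread between these libraries only.

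CRY2 was at 0 to 0.06 TPM, a measure of transcript level scaled for gene length and library total, in the 6 cry2-1 libraries, against 72.3 to 110 TPM in the other 12. The neighbouring genes AT1G04420 and AT1G04410 (c-NAD-MDH1, a malate dehydrogenase) likewise read 0 to 0.22 TPM in cry2-1, so their loss and that of CRY2 cannot be told apart in any cry2-1 value. FL1 was at 0.13 to 0.37 TPM in fl4_dark, against 2.81 to 4.62 TPM in WT_dark 4-6, and FKD1 overlapped between these groups. The dark wild-type sets stood apart: 50.8% of the 19703 genes tested differed between WT_dark 4-6 and WT_dark 1-3, although labels give both the same genotype, age and light. Their make-up differed too. Loci of ribosomal RNA summed to 6550 to 7907 TPM in WT_dark 4-6, whereas WT_dark 1-3 had 41040 to 48180 TPM, and organelle loci to 2076 to 2801 TPM in WT_dark 4-6, whereas WT_dark 1-3 had 34290 to 36382 TPM. The highest library of the other groups, in fl4_dark for both, had 31348 TPM of ribosomal RNA and 9906 TPM of organelle loci. Calls of members that changed with the dark set used are listed for each comparison.

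Plants short of phosphate switch on a set of genes through PHR1, a MYB-type transcription factor that binds the sequence GNATATNC (the P1BS motif). When phosphate is plentiful, SPX proteins bind inositol pyrophosphates and hold PHR1 away from DNA. Among the targets of PHR1 are the microRNAs miR399 and miR827: miR399 acts on PHO2, a ubiquitin-conjugating enzyme that removes PHT1 and PHO1 transporters, and miR827 acts on NLA, a ubiquitin ligase that removes PHT1 transporters. The RNAs AT4 and IPS1 bind miR399 without being cut and so keep it from PHO2, which makes them target mimics.

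The sequences below show how these RNAs pair, because AT4, MIR827 and IPS1 are among the transcripts that differed. PHO2 has further miR399 sites in its 5′ UTR, such as chr2:14282106-14282126, and only the site of lowest coordinate is printed. Sequences and coordinates are those of RefSeq for assembly TAIR10.1, matched by locus; the processing notes name TAIR10 and the deposited tables carry no coordinates. In the mature microRNAs the capitals mark the seed (bases 2 to 8). In AT4 and IPS1 they mark the 3 unpaired bases that face the gap between positions 10 and 11 of miR399. Some other bases of both sites also do not pair with the miR399a printed here.
miR827 (chr3:22122811-22122831, minus strand): uUAGAUGAccaucaacaaacu
miR399a (chr1:10227165-10227185, plus strand): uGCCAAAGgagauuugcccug
AT4 mimic site (chr5:895149-895172, plus strand): uugggcaacuuCGAuccuuuggca
IPS1 mimic site (chr3:3051224-3051247, plus strand): uugggcaacuuCUAuccuuuggca
PHO2 site for miR399 in the 5′ UTR (chr2:14281770-14281790, minus strand): uagagcaaaucuccuuuggca
NLA site for miR827 in the 5′ UTR (chr1:635401-635421, plus strand): uguuuguugauggucaucuaa

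The 250 bases before the annotated start of MIR827, GDPD1 and AT4 follow. These genes were higher in a mutant than in every dark wild-type library and held whole P1BS motifs in these bases. SPX2, PHT1;4, G3Pp1 and PAP12 were also above every dark wild-type library in a mutant but held no whole motif there. Capitals mark whole P1BS motifs, which read the same on both strands.
MIR827 (chr3:22122937-22123186, minus strand): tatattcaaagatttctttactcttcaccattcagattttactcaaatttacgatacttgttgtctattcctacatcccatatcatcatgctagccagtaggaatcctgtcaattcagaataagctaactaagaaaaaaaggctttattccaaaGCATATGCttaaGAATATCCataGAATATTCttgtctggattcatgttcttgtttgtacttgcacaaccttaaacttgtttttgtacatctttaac
GDPD1 (chr3:350011-350260, minus strand): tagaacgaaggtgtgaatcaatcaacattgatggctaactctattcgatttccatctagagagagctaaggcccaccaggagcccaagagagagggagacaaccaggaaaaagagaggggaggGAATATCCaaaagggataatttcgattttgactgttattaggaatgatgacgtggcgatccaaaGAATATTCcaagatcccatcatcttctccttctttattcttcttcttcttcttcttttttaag
AT4 (chr5:894332-894581, plus strand): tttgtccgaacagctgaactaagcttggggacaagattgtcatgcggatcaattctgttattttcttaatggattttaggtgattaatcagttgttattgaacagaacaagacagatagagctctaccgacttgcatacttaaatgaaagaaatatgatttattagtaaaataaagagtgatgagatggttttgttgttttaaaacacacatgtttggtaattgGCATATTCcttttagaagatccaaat

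P1BS motifs lay in the window from 250 bases before to 50 after the start in 14 of the 38 genes (36.8%), against 2029 of 32546 loci of the whole table (6.23%). Without the bases after the start, the share was 23.7% of the 38 genes and 5.43% of all loci. MIR827 held 3 motifs, their first bases 96, 84 and 73 bases before the start. GDPD1 held 2, at 127 and 63 bases before it, and AT4 held 1, at 26 bases. SPX1, PAP12, RNS1 and SQD1 had their motif only after the start. Of 56 other genes of phosphate supply, listed further on, 25 held the motif (44.6%). A match describes these letters only and is not a measured binding site.

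**Figure D1:**
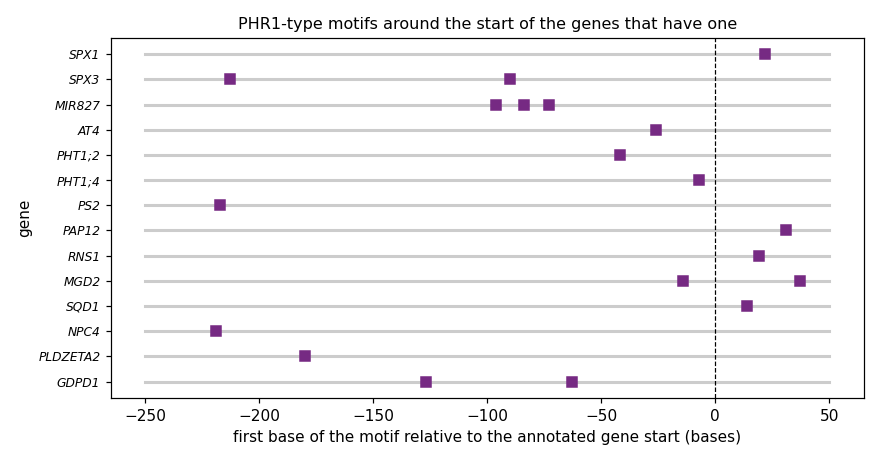
Position of each P1BS motif (squares) in the 14 genes that have one, as the distance in bases of its first base from the annotated gene start (dashed line); grey bars span the window searched. MIR827 carries 3 motifs between 96 and 73 bases before its start, and SPX1, PAP12, RNS1 and SQD1 carry theirs after the start.

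Of the 38 genes, 23 were at 1 TPM or above in every library and 4 below it in every library, with PHT1;3, 1 of these 4, listed at 0 throughout. The analysis of the cry2-1 and matching wild-type libraries tested 28 of the genes and that of flΔ4 tested 27, after a filter at a mean of 1 TPM. IPS1 and PS2 reached the filter only through cry2-1, and MIR827 only through flΔ4. SPX3, PHT1;2, PHT1;3, PHT1;5, PHT1;8, PEPC1, MGD3 and NPC4 stayed under it in all fits, with a highest single value of 1.93 TPM, and PHT1;9 passed it only in the comparison of dark wild-type sets. PLDZETA2 and LPR1 were under it in flΔ4 and MIR827 in cry2-1. Of the 38 genes, 7 overlap an annotated gene on the opposite strand (PHR1, NLA, PAP17, PAP10, PLDZETA2, GDPD1 and LPR1); the kit is a stranded one, but whether counting used strand is not given, so reads of the partner genes cannot be told apart. Changes below are on the log2(TPM + 1) scale, each with its standard error, which understates changes of low genes.

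In darkness, cry2-1 seedlings carried more AT4, SPX1, SQD1, PS2 and AT5G20790 transcript than WT_dark 1-3, in every library. The adjusted p of limma was under 0.05 in the higher direction for 11 of the 28 genes tested, where 10% of all genes were, and in the lower direction for 1 (SPX4), where 2.89% were. The cry2-1 libraries all lay above those of WT_dark 1-3 for 15 genes (28% of all genes did) and below for 3, SPX4, PHO2 and NLA (11.2%). The choice of the list used this contrast, so nothing is read from these counts. The median change was 0.31 for the 28 genes and 0.10 for all genes. Ribosomal RNA and organelle loci took 9565 to 12665 and 4702 to 9007 TPM in cry2_dark, less than in WT_dark 1-3. With these loci left out, the median change of all genes was 0.01, and 1086 of all genes were called higher in place of 2001. The 11 became 4 without cry2_dark 3, 7 without WT_dark 1, 6 without WT_dark 2 and 4 when all 6 dark wild-type libraries were used. Of the 12 calls, those of SPX1, SPX2, AT4 and SQD1 stood whichever library was left out. Only SPX2, AT4, PHT1;4 and G3Pp1 kept their call when WT_dark 4-6, or all 6 libraries, stood in for WT_dark 1-3. Against WT_dark 4-6 the calls of SPX1, SPX4, IPS1, PHO1;H1, PS2, PAP12, SQD1 and AT5G20790 were lost, with SPX4 at -0.23, PHO1;H1 at 0.22 and PAP12 at 0.19. PHT1;1 (1.51), PHO1 (1.11), VPT1 (0.92), PHF1 (0.64) and RNS1 (1.14) were then called higher and PHR1 lower (-0.43). Genes above all 6 of those libraries in cry2_dark were SPX2, AT4, PHT1;4, G3Pp1 and GDPD1, where 9.21% of all genes were.

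In flΔ4 seedlings AT4, MIR827 and G3Pp1 were higher than in WT_dark 4-6, and the other 24 genes tested were not called. The adjusted p was under 0.05 in the higher direction for these 3 of 27 genes, where 0.222% of all genes were, and in the lower direction for none, where 0.0824% were; at an unadjusted p under 0.05 it was 3 genes. Libraries of flΔ4 all lay above WT_dark 4-6 for 6 genes, MIR827, AT4, G3Pp1, PAP17, PAP12 and GDPD1 (9.55% of all genes did), and below for PHT1;1 and PHO1;H1 (15.5%). The median change was -0.14 for the 27 genes and -0.12 for all genes. Without fl4_dark 1, or without WT_dark 5, only 1 of the 3 calls stood, that of MIR827, with AT4 at 1.77 and 1.68. MIR827 reached the filter only through fl4_dark, so its call supports nothing, here or against the other dark libraries. The call of G3Pp1 was also lost without fl4_dark 2 or WT_dark 6, at 0.98 and 0.92. Without fl4_dark 3 the libraries lay below wild type for 13 genes, with 3 genes called lower, and without WT_dark 4 for 8. Genes above all 6 dark wild-type libraries were MIR827, AT4, G3Pp1, PAP12 and GDPD1, 5 of 27, where 7.46% of all genes were. Against WT_dark 1-3 in place of 4-6, 9 genes were called higher and 9 lower. The 3 calls stood, and PHR1 (0.74), SPX1 (1.53), PAP17 (0.46), PAP12 (0.55), SQD1 (0.70) and GDPD1 (0.52) joined them. Called lower were PHT1;1 (-2.38), PHT1;4 (-1.35), PHF1 (-0.74), PHO1 (-1.58), VPT1 (-1.24), PAP26 (-0.52) and RNS1 (-1.27), with PHT1;9 and PLDZETA2, which were under the filter before. With all 6 dark libraries the calls of AT4 and MIR827 stood and that of G3Pp1 (0.76) did not.

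After blue light, AT4, SPX1, SQD1, PS2 and AT5G20790 were again higher in every cry2-1 library, and so were PHT1;1, PHT1;4, PHO1 and MGD2. Whether the set of genes differs from that in darkness was not tested. The call in the higher direction was made for 14 of 28 genes, where 2.61% of all genes were called, and in the lower direction for none, at an unadjusted p under 0.05 either, where 0.736% of all genes were called. Every cry2_blue library lay above every WT_blue library for 18 genes (18.9% of all genes) and below for none (5.35%). The median change was 0.61 for these genes and 0.11 for all genes. The 14 became 9 without cry2_blue 2 and 8 without WT_blue 2, 9 under median-of-ratios scaling, and 1 when only these 6 libraries entered the fit. Calls that stood whichever library was left out were 8, those of SPX1, AT4, IPS1, PHT1;4, PS2, MGD2, SQD1 and AT5G20790. Of these, IPS1 and PS2 reached the filter only through cry2-1, so their calls support nothing.

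**Figure D2:**
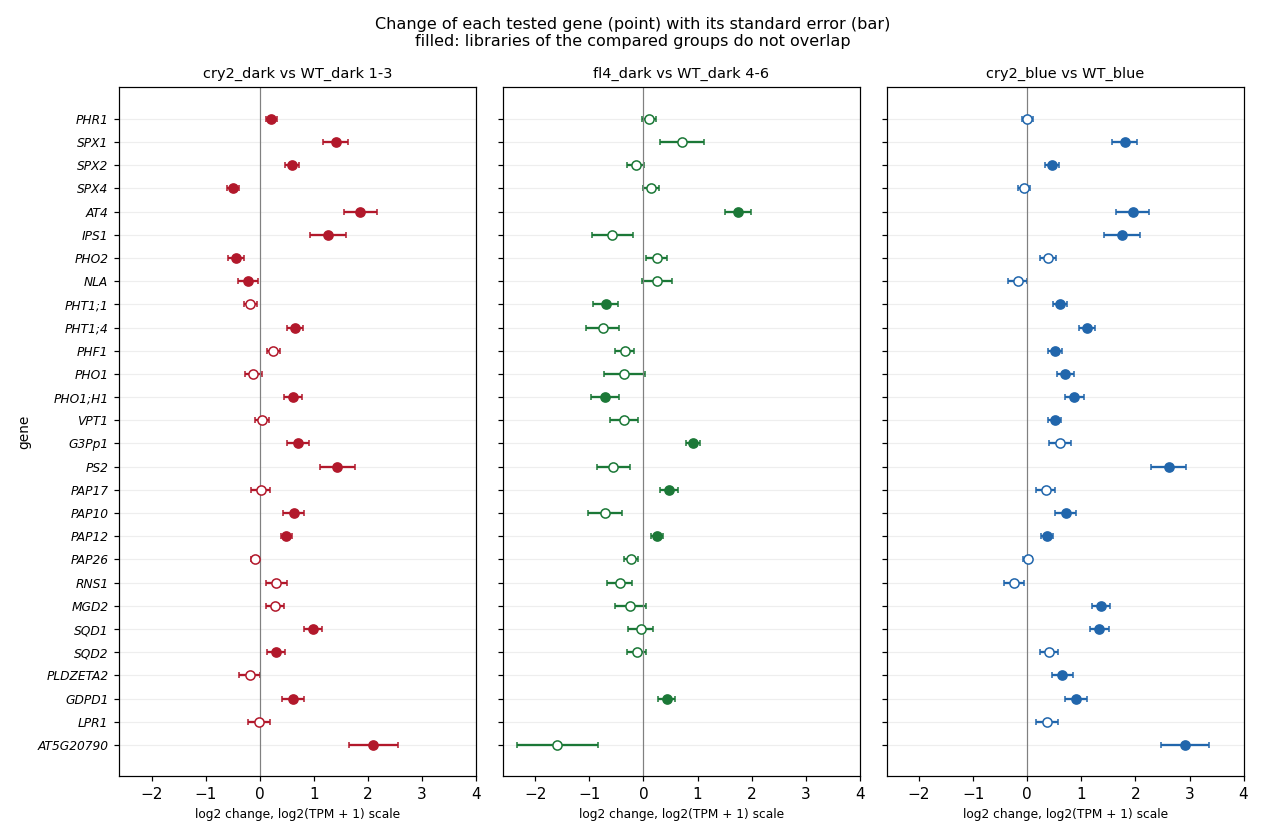
Change of each tested gene between mutant and wild type on the log2(TPM + 1) scale (x axis), with its standard error, in 3 panels; filled points mark genes whose mutant and wild-type libraries do not overlap. AT4 lies between 1.74 and 1.95 in all panels, while IPS1, PS2 and AT5G20790 are positive in both cry2-1 panels and negative, with overlap, in the flΔ4 panel. MIR827 is left out because its wild-type libraries were listed at 0.

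AT4 (AT5G03545) stood above wild type in all 3 mutant groups. It had 134, 245 and 209 TPM in cry2_dark, against 41.0, 50.4 and 66.4 TPM in WT_dark 1-3. In fl4_dark it had 244, 198 and 338 TPM, against 61.7, 69.1 and 99.9 TPM in WT_dark 4-6. After blue light it had 192, 194 and 162 TPM in cry2_blue, whereas WT_blue had 75.5, 37.4 and 35.3 TPM. No mutant library overlapped any wild-type library, and the lowest mutant value was 134 TPM against a highest wild-type value of 99.9 TPM. The changes were 1.86 ± 0.31 in cry2_dark, 1.74 ± 0.24 in fl4_dark and 1.95 ± 0.31 in cry2_blue.

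AT4, G3Pp1, PAP12 and GDPD1 were the genes whose libraries lay above their own wild-type set in both dark mutants, 4 of 26 tested in both, where 1.18% of all genes did so. AT4, PAP12 and GDPD1 did so in cry2_blue too, where 0.141% of all genes lay above wild type in all 3 comparisons. G3Pp1 (AT3G47420) belongs to the family of glycerol-3-phosphate permeases. Its transcript stood at 33.3, 41.3 and 41.1 TPM in cry2_dark, against 19.1, 22.7 and 28.3 TPM in WT_dark 1-3. In fl4_dark it stood at 34.5, 32.6 and 41.3 TPM, against 18.5, 18.5 and 18.9 TPM in WT_dark 4-6, so that mutant and wild type were separate in darkness. G3Pp1 overlapped after blue light, at 48.1 to 63.4 TPM in cry2_blue, whereas WT_blue had 27.1 to 48.9 TPM.

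GDPD1 (AT3G02040), a glycerophosphodiesterase that frees glycerol-3-phosphate from lipid remnants, had 47.5, 59.6 and 53.0 TPM in cry2_dark, against 32.8, 36.9 and 33.4 TPM in WT_dark 1-3. It had 52.4, 47.2 and 49.3 TPM in fl4_dark, against 31.9, 46.3 and 33.2 TPM in WT_dark 4-6. The highest dark wild-type library, WT_dark 5, was within 1 TPM of the lowest flΔ4 library. PAP12 (AT2G27190), a secreted purple acid phosphatase, changed by 0.49 ± 0.10 in cry2_dark, 0.25 ± 0.12 in fl4_dark and 0.36 ± 0.10 in cry2_blue. G3Pp1, GDPD1 and PAP12 were singled out after their values were seen.

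The precursor of miR827 was detected in flΔ4 and hardly elsewhere. MIR827 (AT3G59884) had 13.3, 10.8 and 6.96 TPM in fl4_dark and was listed at 0 in all 3 libraries of WT_dark 4-6. It was also listed at 0 in cry2_dark, WT_dark 1-3 and WT_blue, and 1 of 3 cry2_blue libraries had 4.47 TPM. All 3 flΔ4 libraries thus lay above the other 15. The library kit selects messenger RNA and the annotated locus is 177 bases long, so a value of 0 does not show that the precursor was missing. All 6 MIR399 precursor loci were listed at 0 in every library.

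NLA (AT1G02860), the gene that miR827 acts on, had 39.1, 20.7 and 32.1 TPM in fl4_dark, against 34.7, 19.4 and 22.4 TPM in WT_dark 4-6, with overlap. In cry2_dark it had 19.9, 21.8 and 19.3 TPM, against 22.2, 24.5 and 24.5 TPM in WT_dark 1-3. PHO2 (AT2G33770) had 44.1, 60.9 and 51.1 TPM in cry2_dark, against 66.5, 68.7 and 76.8 TPM in WT_dark 1-3. These cry2_dark values lay below WT_dark 1-3, with a change of -0.44 ± 0.15, but overlapped with WT_dark 4-6, which had 61.8, 46.1 and 55.0 TPM. PHO2 overlapped in the other mutants: it had 72.5, 48.6 and 74.2 TPM in fl4_dark, and 71.2, 59.0 and 51.1 TPM in cry2_blue, whereas WT_blue had 42.6, 41.7 and 54.0 TPM.

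IPS1 (AT3G09922), the second target mimic, was low throughout and, unlike AT4, overlapped with wild type in flΔ4. It had 0.54, 3.46 and 1.89 TPM in cry2_dark, against 0, 0.43 and 0 TPM in WT_dark 1-3. The flΔ4 libraries had 1.24, 0.49 and 2.60 TPM, against 2.48, 1.41 and 3.72 TPM in WT_dark 4-6, with overlap. After blue light it had 7.15, 4.77 and 5.11 TPM in cry2_blue, whereas WT_blue had 0.54, 1.04 and 1.37 TPM. The changes were 1.26 ± 0.33 in cry2_dark and 1.76 ± 0.33 in cry2_blue. Set against WT_dark 4-6, the cry2_dark change of IPS1 turned to -0.33 ± 0.36.

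PHR1 (AT4G28610) itself changed by at most 0.21 in size against the matching wild-type set, but in cry2_dark its direction depended on the dark set. It had 37.4, 38.8 and 41.6 TPM in cry2_dark, against 31.9, 32.6 and 36.8 TPM in WT_dark 1-3, a change of 0.21 ± 0.10 without overlap. In fl4_dark it had 50.5, 61.5 and 59.7 TPM, against 56.1, 49.6 and 54.1 TPM in WT_dark 4-6, with overlap. After blue light it had 51.4, 52.0 and 55.4 TPM in cry2_blue, whereas WT_blue had 54.8, 56.9 and 47.1 TPM, again with overlap. With the dark sets exchanged, the change of PHR1 was -0.43 ± 0.10 in cry2_dark and 0.74 ± 0.13 in fl4_dark.

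SPX1 (AT5G20150), whose protein holds PHR1 when phosphate is plentiful and whose transcript is a sensitive mark of starvation, was high in both cry2-1 groups. It had 31.7, 42.2 and 41.6 TPM in cry2_dark, against 10.3, 13.8 and 18.3 TPM in WT_dark 1-3. After blue light it had 39.8, 51.0 and 43.6 TPM in cry2_blue, whereas WT_blue had 13.9, 15.1 and 8.25 TPM. Both cry2-1 groups lay wholly above their wild type, by 1.41 ± 0.23 in darkness and 1.80 ± 0.23 after blue light. In fl4_dark it had 38.2, 32.9 and 57.9 TPM, against 13.4, 39.2 and 29.6 TPM in WT_dark 4-6, a change of 0.71 ± 0.41 with overlap. WT_dark 5 reached the range of the mutants, and against WT_dark 4-6 the cry2_dark change of SPX1 was 0.59 ± 0.33.

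SPX2 (AT2G26660), of the same family, had 29.6 to 31.0 TPM in cry2_dark, against 17.3 to 21.0 TPM in WT_dark 1-3, and overlapped in flΔ4. SPX4 (AT5G15330), which responds weakly to phosphate at the transcript level, was the gene lower in cry2_dark, at 14.3, 16.9 and 17.8 TPM, against 23.4, 25.3 and 21.5 TPM in WT_dark 1-3. The change of SPX4 was -0.50 ± 0.11 in cry2_dark, 0.14 ± 0.15 in fl4_dark and -0.07 ± 0.11 in cry2_blue, with overlap outside cry2_dark.

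PS2 (AT1G73010), a phosphatase of the haloacid dehalogenase family induced by starvation, had 1.31, 2.87 and 4.75 TPM in cry2_dark, against 0.50, 0.31 and 0.33 TPM in WT_dark 1-3. It had 5.22, 7.36 and 12.5 TPM in cry2_blue, whereas WT_blue had 0.21, 0.80 and 0.41 TPM. Libraries of fl4_dark had 0.86, 0.43 and 2.02 TPM, against 1.84, 1.90 and 2.12 TPM in WT_dark 4-6. Both cry2-1 groups were above their wild type and flΔ4 overlapped with its own. The changes of PS2 were 1.43 ± 0.33 in cry2_dark, -0.56 ± 0.31 in fl4_dark and 2.61 ± 0.33 in cry2_blue, and 0.33 ± 0.33 for cry2_dark against WT_dark 4-6.

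AT5G20790 had 8.33, 23.5 and 26.0 TPM in cry2_dark, against 1.61, 4.93 and 4.04 TPM in WT_dark 1-3. It had 15.4, 24.5 and 26.4 TPM in cry2_blue, whereas WT_blue had 2.84, 2.26 and 1.12 TPM. The fl4_dark libraries had 2.51, 0.82 and 8.25 TPM, against 4.5, 14.7 and 17.9 TPM in WT_dark 4-6. AT5G20790 was thus above the matching wild type in cry2-1 and scattered in flΔ4 and in WT_dark 4-6. The changes were 2.1 ± 0.45 in cry2_dark, -1.60 ± 0.75 in fl4_dark and 2.92 ± 0.45 in cry2_blue. For cry2_dark it was 0.64 ± 0.52 against WT_dark 4-6 and 1.37 ± 0.54 against all 6 dark libraries.

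**Figure D3:**
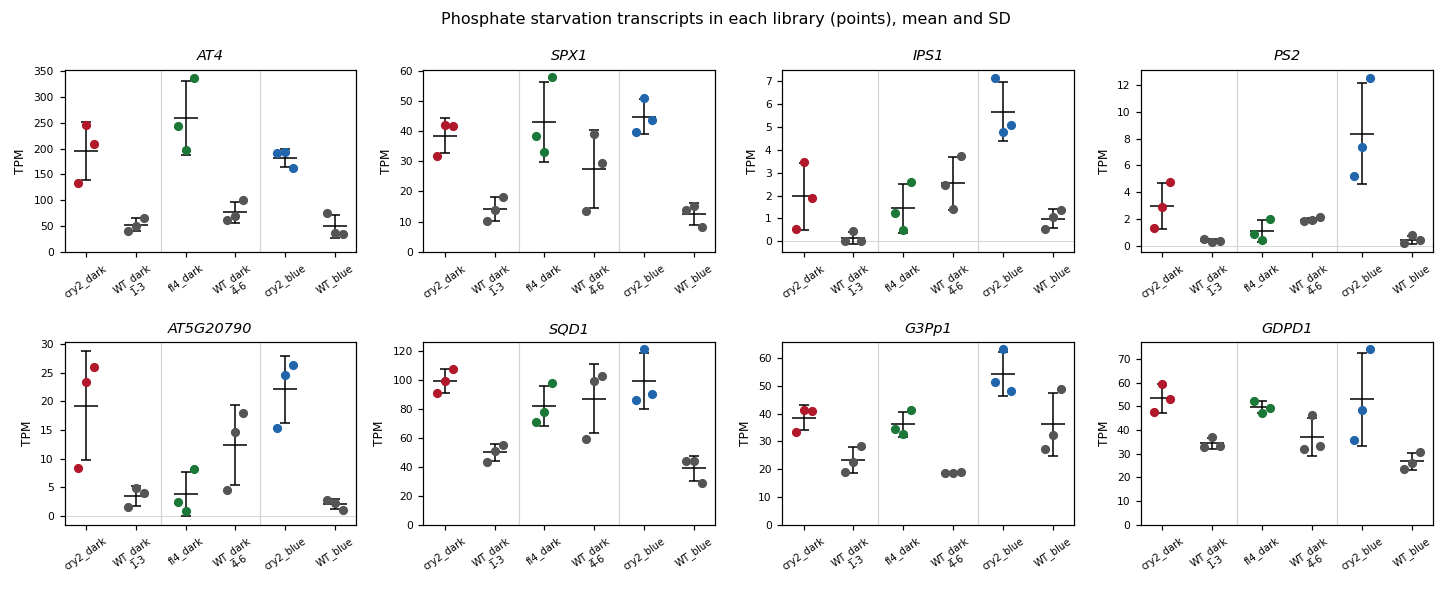
TPM of 8 genes in every library (points), with the mean and SD of each group of 3 (bars), each mutant group left of its wild type. AT4 and GDPD1 separate mutant from wild type in all pairs. SPX1, IPS1, PS2, AT5G20790 and SQD1 are separate in both cry2-1 pairs. WT_dark 4-6 reaches higher values than WT_dark 1-3 for all genes shown but G3Pp1, where it lies below.

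Among membrane lipid genes, SQD1 was high in cry2-1 and overlapped with wild type in flΔ4. SQD1 (AT4G33030) makes UDP-sulfoquinovose for sulfolipid, which replaces phospholipid under starvation. It had 90.6, 99.3 and 107 TPM in cry2_dark, against 43.5, 50.9 and 55.2 TPM in WT_dark 1-3, and 85.8, 121 and 89.9 TPM in cry2_blue, whereas WT_blue had 44.0, 43.7 and 29.0 TPM. In fl4_dark it had 71.0, 77.5 and 97.5 TPM, against 59.4, 99.0 and 102 TPM in WT_dark 4-6. The cry2-1 libraries were above wild type in both light conditions, by 0.98 ± 0.17 and 1.33 ± 0.17, while flΔ4 overlapped at -0.06 ± 0.22. Set against WT_dark 4-6, SQD1 in cry2_dark changed by 0.23 ± 0.22.

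MGD2 (AT5G20410), a galactolipid synthase of the same exchange, overlapped in darkness and was separate after blue light, at 4.53, 6.47 and 4.64 TPM in cry2_blue, whereas WT_blue had 1.52, 1.36 and 1.32 TPM (1.36 ± 0.17). SQD2, which completes sulfolipid, changed by 0.30 ± 0.17 in cry2_dark and 0.40 ± 0.17 in cry2_blue. Phospholipase PLDZETA2 stayed at or under 1.85 TPM in all libraries. Of the 5 lipid genes tested, 1 was called higher in cry2_dark (SQD1) and 3 in cry2_blue (MGD2, SQD1 and GDPD1); of the 4 tested in flΔ4 none was called, nor was any lipid gene called lower.

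Of 7 transport genes tested, 6 changes were negative in flΔ4, where 63.9% of all genes were negative, and all 7 were positive in cry2-1 after blue light, where 67.6% of all genes were positive. The difference between the mutants was not tested. PHT1;1 (AT5G43350), a proton-coupled phosphate importer of the root, had 24.5, 15.6 and 30.6 TPM in fl4_dark, against 43.4, 32.5 and 37.4 TPM in WT_dark 4-6. It had 33.8, 31.1 and 41.7 TPM in cry2_blue, whereas WT_blue had 23.6, 22.4 and 22.6 TPM, and 96.5, 118 and 111 TPM in cry2_dark, against 135, 126 and 108 TPM in WT_dark 1-3. The flΔ4 libraries lay below wild type and cry2_blue libraries above it, with changes of -0.70 ± 0.23 and 0.60 ± 0.12, while cry2_dark overlapped. PHT1;2 and PHT1;3 are neighbouring near-copies of PHT1;1 that stayed between 0 and 0.29 TPM, and how reads were divided among the 3 is uncertain.

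PHT1;4 (AT2G38940), a second root importer, had 25.4, 27.0 and 28.1 TPM in cry2_dark, against 16.6, 15.4 and 18.2 TPM in WT_dark 1-3. It had 12.5, 15.6 and 9.60 TPM in cry2_blue, whereas WT_blue had 5.24, 4.46 and 5.98 TPM, and 6.08, 3.35 and 9.89 TPM in fl4_dark, against 9.88, 11.3 and 11.02 TPM in WT_dark 4-6. Both cry2-1 groups were above wild type, and in flΔ4 fl4_dark 3 met the lowest wild-type library. PHO1;H1 (AT1G68740), a homologue of the exporter PHO1, was higher in cry2_dark (0.61 ± 0.17) and cry2_blue (0.87 ± 0.17) and lower in fl4_dark (-0.71 ± 0.26), each without overlap. PHO1, which loads phosphate into xylem, PHF1, which lets PHT1 proteins leave the endoplasmic reticulum, and VPT1, which moves phosphate into the vacuole, were separate from the matching wild type in cry2_blue, at 0.70 ± 0.16, 0.52 ± 0.12 and 0.51 ± 0.12, and overlapped with it in both dark mutants. With the dark sets exchanged, all 3 were called higher in cry2_dark and lower in fl4_dark. Of 7 transport genes tested, 3 were called higher in cry2_dark, 1 in fl4_dark (G3Pp1) and 6 in cry2_blue. The calls of PHT1;1, PHF1, PHO1, PHO1;H1 and VPT1 in cry2_blue were each lost without at least 1 library, WT_blue 2 among them (0.49 to 0.84 without it), and all but that of PHT1;1 also without cry2_blue 2 (0.44 to 0.86).

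Acid phosphatases and the ribonuclease were less uniform. PAP10, a secreted acid phosphatase, had 20.8, 24.4 and 23.9 TPM in cry2_dark, against 13.0, 14.7 and 16.1 TPM in WT_dark 1-3. It stood at 38.9, 55.9 and 33.7 TPM in cry2_blue, whereas WT_blue had 27.2, 31.0 and 18.9 TPM, and at 8.05, 10.1 and 16.7 TPM in fl4_dark, against 12.3, 22.8 and 23.4 TPM in WT_dark 4-6. PAP10 was thus separate from wild type in both cry2-1 groups and overlapped in flΔ4. PAP17, a phosphatase also tied to senescence and peroxide, was separate only in flΔ4, at 55.3, 44.4 and 68.5 TPM, against 43.6, 37.9 and 37.1 TPM in WT_dark 4-6. PAP26, the main acid phosphatase of the vacuole, and RNS1 overlapped with wild type in all 3 comparisons.

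Low genes are given by their range. PHT1;9 had 0.81 to 1.48 TPM in cry2_dark, against 1.71 to 2.32 TPM in WT_dark 1-3, and at most 0.42 TPM in the other groups. MGD3, the partner of MGD2, had 1.28 to 1.75 TPM in cry2_dark, against 0.52 to 0.70 TPM in WT_dark 1-3, and both pairs were separate without a test. SPX3 reached 1.93 TPM, PEPC1 1.23 TPM, NPC4 1.01 TPM, PHT1;8 0.47 TPM and PHT1;5 0.44 TPM in their highest libraries. LPR1, a multicopper oxidase that restrains root growth under low phosphate, reached 2.30 TPM and overlapped in all 3 comparisons.

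The response of the genes to blue light was tested; these tests share their libraries with the comparisons of mutant and wild type. In wild type after 30 min of blue light, PHT1;1, PHT1;4, PHO1, VPT1 and PHF1 were lower than in WT_dark 1-3, and PHR1, PAP17 and PAP10 higher. By limma with Benjamini-Hochberg adjustment, 4 of 28 genes rose and 11 fell, where 28.7% and 32.9% of all genes did, so the share that fell is near that of all genes and the share that rose is below it. PHT1;1 averaged 22.8 ± 0.64 TPM in WT_blue and 123 ± 13.7 TPM in WT_dark 1-3 (SD, n = 3 each), a change of -2.37 ± 0.12 (adjusted p = 1.01e-08). PHO1 changed by -1.69 ± 0.16 (adjusted p = 1.4e-06), PHT1;4 by -1.51 ± 0.15 (adjusted p = 3.03e-06), VPT1 by -1.18 ± 0.12 (adjusted p = 3.74e-06) and PHF1 by -1.11 ± 0.12 (adjusted p = 6.78e-06). RNS1 (AT2G02990), a ribonuclease that recovers phosphate from RNA, fell by 1.15 ± 0.19 (adjusted p = 0.000174). SPX2, SPX4, PHO2, MGD2 and PLDZETA2 fell as well, and the genes that rose were PHR1, PAP17, PAP10 and G3Pp1. Without WT_dark 1, WT_dark 2 or WT_blue 3 the call of G3Pp1 was lost, at 0.45, 0.57 and 0.35.

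AT4 and SPX1, high in cry2-1, showed no call for light in wild type against WT_dark 1-3: AT4 changed by -0.15 ± 0.31 (adjusted p = 0.694) and SPX1 by -0.18 ± 0.23 (adjusted p = 0.514). In cry2-1 the same genes changed by -0.06 ± 0.31 (adjusted p = 0.873) and 0.22 ± 0.23 (adjusted p = 0.439). By this test 6 of 28 genes rose in cry2_blue over cry2_dark and 7 fell, where 25.8% and 30.2% of all genes did. The 7 were SPX2, PHT1;1, PHT1;4, PHF1, PHO1, VPT1 and RNS1, all among the 11 of wild type. No second dark set of cry2-1 exists, so whether these falls depend on the dark set cannot be checked. In cry2_dark PHT1;1 averaged 109 TPM and vascular markers, described below, summed to 202 to 262 TPM. WT_dark 1-3 had 123 and 233 to 242 TPM, and WT_dark 4-6 had 37.8 and 83.3 to 115 TPM. Ribosomal RNA loci of cry2_dark, at 9565 to 12665 TPM, were nearer to WT_dark 4-6. PHT1;1 fell by 1.59 ± 0.12 in cry2-1 (adjusted p = 3.79e-07) and RNS1 by 1.70 ± 0.19 (adjusted p = 9.28e-06). IPS1 (1.29 ± 0.33, adjusted p = 0.00523) and PS2 (1.26 ± 0.33, adjusted p = 0.00569) rose in cry2-1, and both stay above the filter without the cry2_blue libraries, though not without cry2-1. In wild type they had 0.79 ± 0.33 (adjusted p = 0.0522) and 0.08 ± 0.33 (adjusted p = 0.851). Whether the light response differs between genotypes was not tested. The rise of MGD2 in cry2-1 was lost without any 1 of the cry2_dark libraries or cry2_blue 2, at 0.29 to 0.47.

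The dark wild-type sets differed in PHR1 and in PHT1;1, PHO1, VPT1 and RNS1; this comparison shares WT_dark 1-3 with the light response. By the same test, 6 genes were higher in WT_dark 4-6 than in WT_dark 1-3 and 10 lower, where 29.8% and 21.1% of all genes were. PHT1;1 averaged 37.8 ± 5.47 TPM in WT_dark 4-6 and 123 ± 13.7 TPM in WT_dark 1-3 (SD, n = 3 each), a change of -1.68 ± 0.13 (adjusted p = 4.85e-05). PHO1 changed by -1.23 ± 0.15 (adjusted p = 0.000417), VPT1 by -0.88 ± 0.12 (adjusted p = 0.000492) and RNS1 by -0.83 ± 0.19 (adjusted p = 0.00787). PHR1 was higher by 0.64 ± 0.10 (adjusted p = 0.000954). IPS1 and PS2, higher by 1.60 ± 0.29 and 1.1 ± 0.18, reached the filter only through WT_dark 4-6, and PHT1;9 and PLDZETA2 only through WT_dark 1-3, so the calls of these 4 support nothing. Of the 16 calls, 9 stood whichever library was left out, with PHT1;1, PHO1, VPT1, RNS1 and PHR1 among them. The 6 higher calls became 3 without WT_dark 1, 3 without WT_dark 2 and 2 without WT_dark 6, and the 10 lower calls 6 without WT_dark 1 and 5 without WT_dark 3.

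Light in wild type cannot be told apart from whatever separates the dark sets, since the change depends on the set used. Against WT_dark 4-6, WT_blue changed by -0.69 ± 0.13 for PHT1;1, -0.92 ± 0.15 for PHT1;4 and -0.72 ± 0.12 for PHF1 (adjusted p = 0.00312, 0.00135 and 0.00108), and SPX2, MGD2, PAP17 and G3Pp1 also kept their call. PHO1, VPT1, RNS1, SPX4 (-0.12), PHO2 (-0.23) and PAP10 (0.41) lost it, and PHR1 stood at -0.01 ± 0.10. Called lower only against WT_dark 4-6 were SPX1 (-0.997 ± 0.33, adjusted p = 0.0431), PS2 (-1.02 ± 0.33, adjusted p = 0.0369), PAP12 (-0.39) and AT5G20790 (-1.98), while SQD1 (-1.12) and PHO1;H1 (-0.79) were also called lower against all 6 dark libraries. With all 6, PHR1, SPX4, PHO2 and PAP10 lost their call. Markers of vascular tissue were among the tissue markers that moved alongside: summed over 9 genes they reached 73.8 to 84.1 TPM in WT_blue, 83.3 to 115 TPM in WT_dark 4-6, whereas WT_dark 1-3 had 233 to 242 TPM. Of 8 vascular markers tested, 7 fell in WT_blue against WT_dark 1-3, and 6 were lower in WT_dark 4-6. None of the 9 vascular markers was at 0 throughout any group. Of 9 root markers tested against WT_dark 1-3, 5 were lower and 1 higher in WT_blue, and 4 lower and 1 higher in WT_dark 4-6. PRP3, lower in both, reached the filter only through WT_dark 1-3. Of 7 cotyledon and shoot markers, 4 were higher and 2 lower in WT_blue, and 5 higher and 2 lower in WT_dark 4-6. The part of these tissues in the changes of the transporters was not tested. In bulk seedlings, fewer cells of a type and less RNA per cell cannot be told apart.

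**Figure D4:**
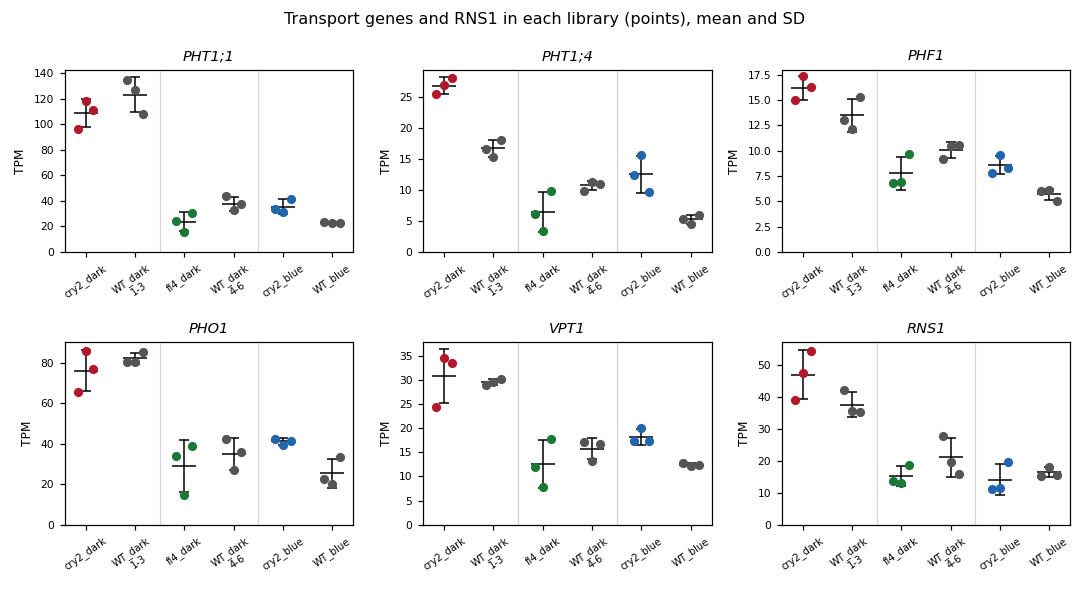
TPM of 5 transport genes and RNS1 in every library (points), with the mean and SD of each group of 3 (bars), each mutant group left of its wild type. All 6 genes average highest in cry2_dark and WT_dark 1-3, and each WT_dark 4-6 library lies below every WT_dark 1-3 library, as for PHT1;1 at 32.5 to 43.4 TPM against 108 to 135 TPM.

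Tissue markers gave the following beside the comparisons of mutant and wild type. Root markers without the abundant PYK10 and TIP2;3 summed to 160 to 212 TPM in cry2_dark, whereas WT_dark 1-3 had 210 to 235 TPM, to 70.6 to 85.2 TPM in fl4_dark, whereas WT_dark 4-6 had 58.7 to 82.8 TPM, and to 60.1 to 74.4 TPM in cry2_blue, whereas WT_blue had 56.6 to 66.4 TPM. With PYK10 and TIP2;3 kept in, cry2_dark lay above WT_dark 1-3, at 5907 to 6852 against 5303 to 5519 TPM, and the other pairs overlapped. In that pair PYK10 was higher in cry2_dark and TIP2;3 lower, each without overlap. Of 9 root markers tested in cry2_dark, none was called higher (1 at an unadjusted p under 0.05) and 1 lower (PRP3). PRP3 averaged 6.48 TPM in WT_dark 1-3, 1.12 TPM in cry2_dark, 0.11 TPM in cry2_blue and 0.05 TPM in WT_blue. It reached the filter only through WT_dark 1-3, so its call supports nothing. By limma none of 8 root markers was called in fl4_dark and none of 9 in cry2_blue, where 1 each was lower at an unadjusted p under 0.05. Vascular markers summed to 202 to 262 TPM in cry2_dark, whereas WT_dark 1-3 had 233 to 242 TPM, to 42.8 to 97.4 TPM in fl4_dark, whereas WT_dark 4-6 had 83.3 to 115 TPM, and to 87.3 to 123 TPM in cry2_blue, whereas WT_blue had 73.8 to 84.1 TPM; only the blue light groups do not overlap. By limma none of 8 vascular markers was called in these comparisons; at an unadjusted p under 0.05, none was lower or higher in cry2_dark, 4 were lower in fl4_dark and 4 higher in cry2_blue, with median changes of -0.60 and 0.41. Cotyledon and shoot markers summed to 11700 to 11816 TPM in cry2_dark, whereas WT_dark 1-3 had 9155 to 9543 TPM, with 3 of 7 called higher and 1 lower. These sums, mostly RBCS1A and RBCS3B, overlapped in the other pairs, at 16038 to 26818 TPM in fl4_dark, whereas WT_dark 4-6 had 16304 to 20692 TPM, and at 18444 to 24255 TPM in cry2_blue, whereas WT_blue had 18862 to 21299 TPM. Single shoot markers were separate in fl4_dark. LHCB1.1 was lower, at 217 to 594 TPM against 946 to 1533 TPM in WT_dark 4-6. HLS1 was higher, at 21.77 to 32.23 TPM against 10.45 to 15.43 TPM. By limma none of 7 shoot markers was called in fl4_dark. The 5 seed reserve and dormancy markers summed to 0.85 to 3.36 TPM in cry2_dark, whereas WT_dark 1-3 had 0.16 to 0.75 TPM, and to 2.38 to 5.53 TPM in fl4_dark, whereas WT_dark 4-6 had 0.48 to 1.96 TPM, without overlap in either. In cry2_blue they summed to 2.72 to 8.94 TPM, whereas WT_blue had 1.19 to 3.28 TPM, with overlap. The part of these tissues in the results was not tested.

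A wider list of phosphate genes gave few calls. Of 56 other such genes, which include further PHT1, PHL, G3Pp, GDPD and PAP members, 36 were tested in cry2_dark, where 3 were called higher (8.33%, against 10% of all genes) and 1 lower, and limma called none of 35 in fl4_dark or of 36 in cry2_blue. At an unadjusted p under 0.05, 4 were higher and 1 lower in fl4_dark and 8 higher in cry2_blue. HRS1, a MYB-type repressor that joins nitrate and phosphate signals, changed by 0.60 ± 0.17 in cry2_dark, DGD1, a galactolipid synthase, by 0.57 ± 0.17 and GDPD5 by 0.49 ± 0.11. HRS1 and DGD1 averaged 33.7 and 22.4 TPM in cry2_dark, below their 36.1 and 24.2 TPM in WT_dark 4-6. Both were also called higher in WT_dark 4-6 than in WT_dark 1-3. AT3G01310, which encodes a kinase that makes inositol pyrophosphates, changed by -0.69 ± 0.13 in cry2_dark. All of these named genes overlapped between cry2_dark and WT_dark 4-6. The median change of this list was 0.05 in cry2_dark, 0.00 in fl4_dark and 0.11 in cry2_blue, against 0.10, -0.12 and 0.11 for all genes.

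Sulfate and iron genes were set beside the phosphate genes. Of 11 sulfate starvation genes tested, 1 was called higher and 1 lower in cry2_dark (9.09% higher, against 10% of all genes) and 1 higher in cry2_blue (against 2.61% of all genes), and limma called none of 10 in fl4_dark, where 2 were lower at an unadjusted p under 0.05. Of 13 iron deficiency genes, 3 were called higher in cry2_dark (23.1%) and 2 in cry2_blue (15.4%), and 1 of 12 in fl4_dark (8.33%, against 0.222% of all genes). The iron transporter IRT1 changed by 1.79 ± 0.18 in cry2_dark and the regulator MYB10 by 1.48 ± 0.17 in fl4_dark. Both were named after their values were seen. IRT1 averaged 4.72 TPM in cry2_dark, 0.67 TPM in WT_dark 1-3, 0.12 TPM in cry2_blue and 0 TPM in WT_blue. It thus reached the filter only through cry2_dark, and its call, counted above, supports nothing.

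**Figure D5:**
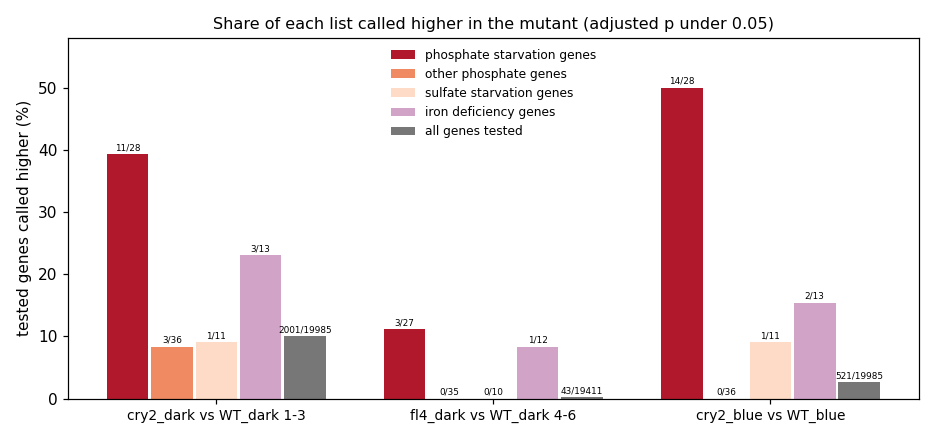
Percent of tested genes called higher in each mutant comparison (y axis, from 0), for 5 gene sets, with the counts above each bar. The phosphate starvation genes reach 39.3% in cry2_dark, 11.1% in fl4_dark and 14 of 28 in cry2_blue, contrasts used to choose them; the other phosphate genes reach 8.33% in cry2_dark and 0 elsewhere.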

How the data were processed

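Per the submitters' processing notes, the authors worked with fastp, HISAT2, StringTie and the TAIR10 build; no version, strand setting or annotation is given there. The deposited values are TPM per locus, which the authors scaled to a near-equal total per library (997143 to 998279 here); TPM keep no sequencing depth, so precision can be judged only from the spread between libraries, and a gene listed at 0 may have been below detection. Ribosomal RNA and organelle loci took the largest share in WT_dark 1-3.

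A gene entered a fit when its libraries averaged 1 TPM or more and was tested on log2(TPM + 1) with limma 3.58.1 in R 4.3.3 (mean-variance trend, robust moderation), with Benjamini-Hochberg adjustment over all genes tested and calls at an adjusted p under 0.05. The cry2-1 and light comparisons came from 1 fit of 12 libraries, the flΔ4 comparison and that of dark wild-type sets from fits of 6. The method was tested on simulated data. Members and gene lists were chosen with earlier results of these data known. Full values are given for genes without overlap and with at least a 2-fold change in a dark mutant, and for PHR1, PHO2, SPX1, MIR827, AT4 and IPS1; further genes shown in full were chosen after their values were seen. Of other lists, at most 4 called genes are named. Alternatives covered the pseudocount, filter, scaling, moderation, choice of dark wild type, replicate block and each left-out library. No 2 libraries held identical values.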

Additional observations from a re-analysis of the deposited data

Results flagged for a closer look

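Among the 6 dark wild-type libraries, 2 of 29 genes checked had a library far from the rest: NLA at 34.67 TPM in WT_dark 4 and GDPD1 at 46.29 TPM in WT_dark 5. Chance gives such a library in about 1 in 20 groups.

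For 3 genes every library of one comparison moved one way and every library of another the opposite way; these differences were not tested. PHO1;H1 changed by 0.61 in cry2_dark, -0.71 in fl4_dark and 0.87 in cry2_blue, each against its wild type. PHT1;1 changed by 0.60 in cry2_blue and -0.70 in fl4_dark. MGD2 changed by 0.43 in cry2_blue against cry2_dark and by -0.64 in WT_blue against WT_dark 1-3.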

How the results depend on the processing

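Counts of genes called depended on the dark wild type and on which libraries shared a fit. In cry2_dark against wild type, 11 higher calls became 4 with all 6 dark libraries; the 1 lower call became 0 there, and 2 with no filter, with ribosomal RNA and organelle loci left out, with median-of-ratios scaling and with only the 6 libraries compared. In fl4_dark, 3 higher calls became 1 with no filter or without trend and robust moderation, and 9 higher and 9 lower with WT_dark 1-3. In cry2_blue, 14 higher calls became 9 with median-of-ratios scaling and 1 with only 6 libraries. Higher calls in WT_blue fell to 2, against 4, with WT_dark 4-6 or all 6 dark libraries. Of the called values, 2 changed sign, both with WT_dark 4-6: IPS1 in cry2_dark (-0.33) and PHR1 in WT_blue (-0.0118). Against all 6 dark libraries, an alternative added after seeing the data, genes without overlap were 5 higher and 0 lower in cry2_dark (15 and 3 before), and 1 lower in fl4_dark. The share of promoters with a motif was 23.7% in the shorter window. The cause of these moves was not tested.

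Leaving out 1 library gave 4 to 10 higher and 0 to 2 lower calls in cry2_dark, 1 to 3 and 0 to 3 in fl4_dark, 8 to 13 and 0 to 0 in cry2_blue, 3 to 5 and 11 to 12 in WT_blue, 5 to 7 and 7 to 8 in cry2_blue against cry2_dark, and 2 to 9 and 5 to 9 in WT_dark 4-6. Genes without overlap ranged from 15 to 18 higher and 3 to 5 lower in cry2_dark, 6 to 7 and 2 to 13 in fl4_dark, and 18 to 21 and 0 to 1 in cry2_blue. The lower calls in fl4_dark reached 3 without fl4_dark 3.

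Scaling mattered to the background: median-of-ratios scaling put the median change of all genes at 0.01 in fl4_dark (-0.12 as deposited), and the higher share of calls at 50.8% in cry2_dark (77.6%) and 56.7% in cry2_blue (78.0%).

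Replicate numbers did not pair libraries across most groups: 2 of 18 same-number pairs had correlations of deviations over 0.1 (range -0.057 to 0.231). Both were of cry2_blue with WT_blue, at 0.231 for replicate 2 and 0.22 for replicate 3, while replicate 1 had 0.014. Unlike-number pairs of these blue light groups ranged from -0.263 to 0.129. Whether the blue light libraries were handled in pairs was not tested. With a replicate block, higher calls were 12 in cry2_dark and 14 in cry2_blue, and those for light 5 in wild type and 6 in cry2-1.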
